A study of Oryza sativa with 8 samples.

Results

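Kinesins are the motor proteins that walk along microtubules, and the rice genes named for them were followed in root RNA of the cultivar IR64. A gene was taken when its symbol or synonym, in the platform annotation or in RefSeq, read KIN followed by a number and 1 letter, with any leading Os removed. The rule uses names and no signal, although it was set with earlier results of these data known. The rule found 35 genes, and 32 of them had a probe set, out of 17905 genes with a probe set in all. KIN12F, KIN14D and KIN14P had none listed and were not analysed here. The number after KIN is the motor's class, and the 32 genes fall into 8 classes: 1 gene of class 4, 2 of class 5, 7 of class 7, 1 of class 8, 3 of class 10, 2 of class 12, 2 of class 13 and 14 of class 14.

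The transgenic plants (T) were IR64 with 35S::OsPSTOL1, in which the constitutive 35S promoter drives a protein kinase gene tied to tolerance of phosphorus (P) deficiency. The controls were their null segregants (NT), which are IR64 plants without the transgene. Both genotypes grew in pots in a greenhouse. Roots were taken at heading from P-deficient soil and at mid-tillering from P-fertilised soil, and any difference between soils given here cannot be told apart from one between growth stages. Each of the 4 groups had 2 arrays, which the labels call biological replicates without saying how many plants or transformed lines stand behind each.

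In plants, kinesins do much of the mechanical work of cell division. Motors of class 5 push the poles of the mitotic spindle apart. Members of classes 7, 10 and 12 act at the phragmoplast, the array of microtubules that builds the new cell wall between daughter cells. Class 13 motors take microtubules apart at their ends, and class 8 motors limit microtubule length. The large class 14 walks toward the minus end, a task that dynein shares in animals but not in flowering plants, which lack it. In a root, dividing cells sit mainly in the meristems of the root tips and of new lateral roots.

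Values are the authors' deposited intensities, called signals here, and a pair of values gives replicate 1 before replicate 2. Tests were made on log2(signal + 32), a scale that shrinks differences among low signals, and a gene passed at a limma adjusted p under 0.05. The arrays had summed signals of 8060018 to 8802152 and median signals of 14.1 to 18.3. Over the 34316 probe sets kept for testing, replicates correlated at 0.964 to 0.984 on log2(signal + 32). Arrays from different soils correlated at 0.804 to 0.83. A sign of RNA quality set both T arrays of P-deficient soil apart. Their actin control read 682.2 and 587.9 times as high at its 3-prime as at its 5-prime end. On the other arrays it read 6.65 to 15.3 times as high. In a GAPDH control pair the ratios were 197.9 and 3.05 on these T arrays, against 1.15 to 2.16 on the others. A second GAPDH pair gave 4.55 and 5.62, within the range of the others, 2.63 to 20.4. T replicate 2 of P-fertilised soil was the highest there. The soil comparison is therefore also given for NT alone. Comparisons of T with NT in P-deficient soil or over both soils rest on the T arrays with the high actin ratio. So does the difference of the genotype effect between soils, and none of these can be given without them. As every sample is a whole root, fewer cells of a type and less RNA per cell cannot be told apart.

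Most kinesin genes were lower in P-deficient soil at heading than in P-fertilised soil at mid-tillering. Over both genotypes 27 of the 32 genes fell, 0 rose and 5 did not pass. Among the 16166 genes tested with 1 probe set each, 30.4% fell, 27.4% rose and 57.8% passed in either direction. The median log2 difference was -1.19 over the kinesins and -0.01 over all genes tested, and single kinesins ran from -2.46 to 0.17. Every array of P-deficient soil lay below every array of P-fertilised soil in 27 of the 32 kinesins, or 84.4%, against 29.7% of all genes tested. They are the same 27 genes that passed on these arrays, so the separation adds no independent support. For 20 of the 27, the mean signal in P-deficient soil stayed above the highest array median, and their mean in P-fertilised soil was 1.64 to 10.5 times as high (median 3.89). The other 7 genes, KIN10A, KIN10C, KIN12E, KIN14B, KIN14E, KIN14Q and KIN14R, read below that median in P-deficient soil, where a ratio would mean little. Of these, KIN10A and KIN14E were kept for testing only through their signal in P-fertilised soil, so the filter favoured a fall in them.

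**Figure D1:**
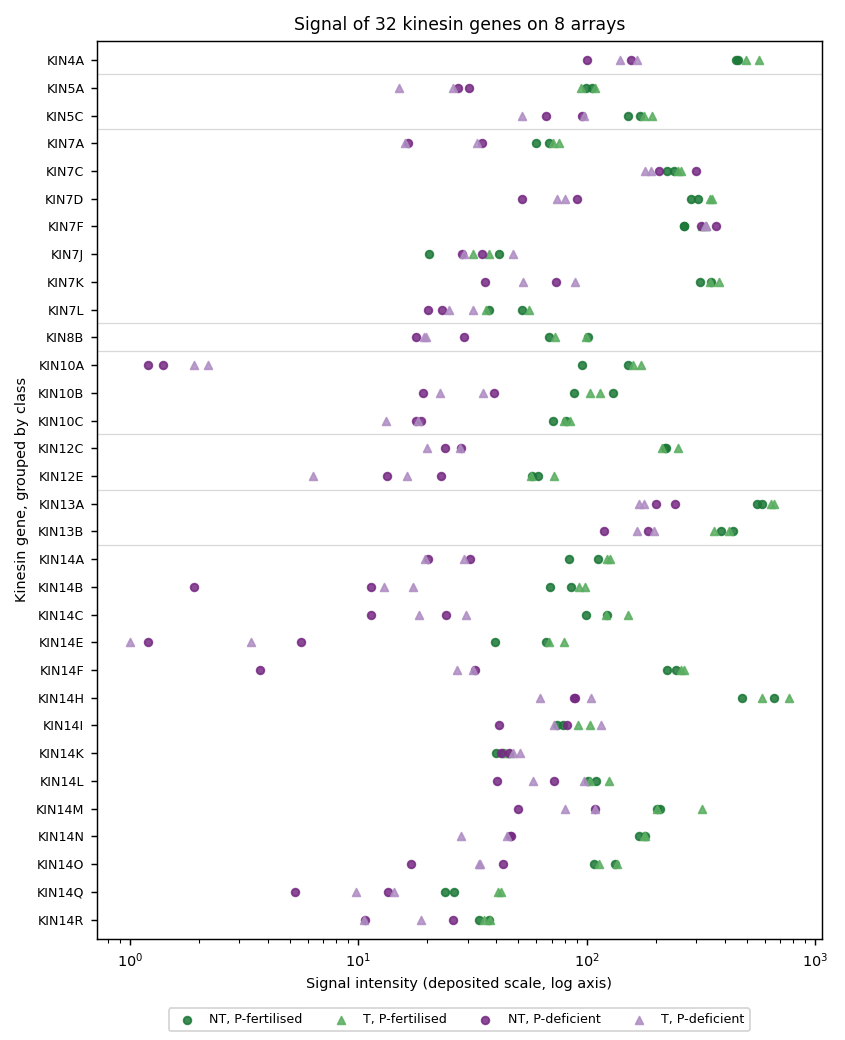
Signal of the 32 kinesin genes (rows, grouped by class) on each of the 8 arrays, on a log axis. Circles are NT and triangles T, purple for P-deficient and green for P-fertilised soil. The 2 colours are apart in 27 genes and overlap in KIN7C, KIN7F, KIN7J, KIN14I and KIN14K. Signals of different genes come from different probes and are not comparable in height.

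**Figure D2:**
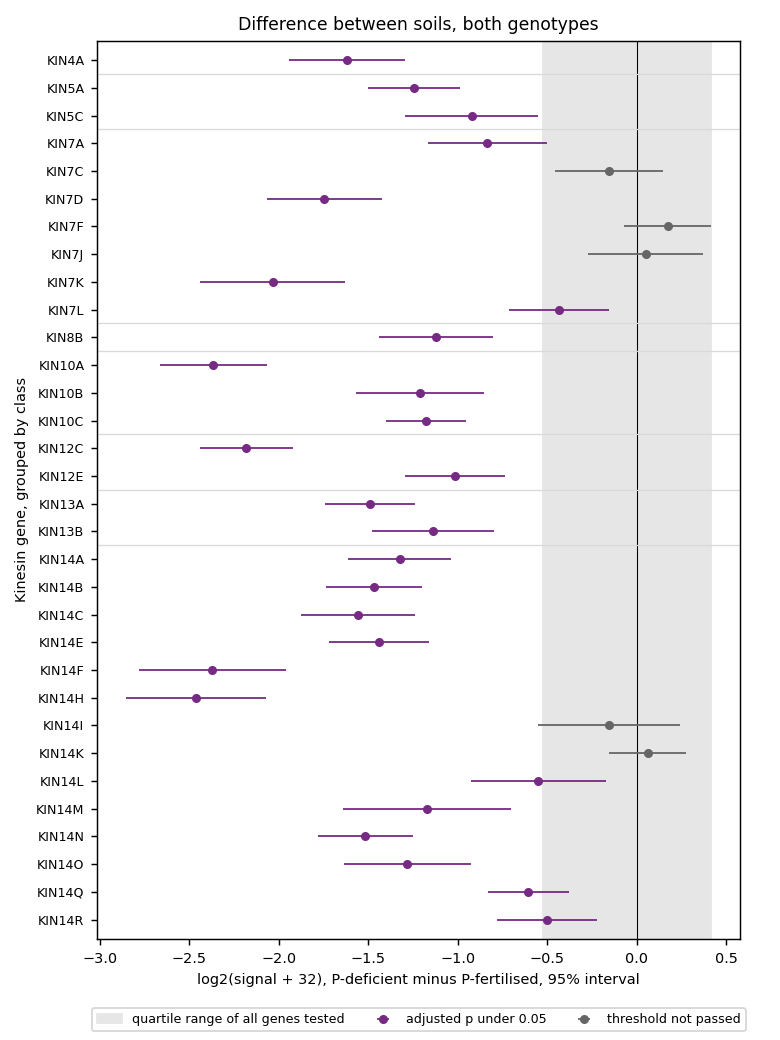
Log2 difference between soils (P-deficient minus P-fertilised, over both genotypes) of each kinesin gene, with its 95% interval. Purple genes passed at a limma adjusted p under 0.05 and grey genes did not. The grey band spans the quartiles of the 16166 genes tested. The kinesins run from -2.46 (KIN14H) to 0.17 (KIN7F).

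Both spindle motors of class 5 fell. KIN5A (LOC9268593) read 98.6 and 105.1 in NT and 108.1 and 93.9 in T in P-fertilised soil. It read 30.4 and 27.3 in NT and 25.9 and 15 in T in P-deficient soil, and fell by 1.24 ± 0.11 (log2, SE, limma adjusted p = 4.104e-05). The soils were well apart, and T replicate 2 of P-deficient soil was the lowest array. KIN5C (LOC9271005), the class member with the higher mean signal, read 151.8 and 171.2 in NT and 176.8 and 192.7 in T in P-fertilised soil. In P-deficient soil it read 66.4 and 95 in NT and 97 and 52.2 in T, and it fell by 0.92 ± 0.16 (limma adjusted p = 0.001816). Its arrays of P-deficient soil were spread widely in both genotypes but did not reach those of P-fertilised soil.

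Among the phragmoplast classes, both members of class 12 on the array fell. KIN12C (LOC4333349) had the smallest p of any kinesin. It read 221.4 and 219.1 in NT and 212.3 and 250.9 in T in P-fertilised soil, and 23.8 and 28.1 in NT and 27.8 and 19.9 in T in P-deficient soil. It fell by 2.18 ± 0.11 (limma adjusted p = 2.196e-06), and its T and NT arrays were interleaved in both soils. In Arabidopsis, motors of this class mark the plane of division and hold the phragmoplast together. KIN12E (LOC4344043) read 56.7 to 71.9 in P-fertilised and 6.3 to 22.9 in P-deficient soil, and fell by 1.01 ± 0.12 (limma adjusted p = 0.000215).

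All 3 genes of class 10 fell. KIN10A (LOC4331094) is known in rice as STD1, from a stemless dwarf mutant with faulty cell division. It read 94.8 and 150.7 in NT and 159.6 and 172.9 in T in P-fertilised soil. In P-deficient soil it read 1.4 and 1.2 in NT and 2.2 and 1.9 in T, far below the array medians of 14.1 to 18.3. The log2 difference of -2.37 ± 0.13 (limma adjusted p = 2.962e-06) is held down by the added 32. KIN10A was kept for testing only through its signal in P-fertilised soil, so the filter favoured a fall. KIN10B (LOC4335606) fell by 1.21 ± 0.16 and KIN10C (LOC4339007) fell by 1.18 ± 0.10. Their signals were 70.8 to 129.8 in P-fertilised and 13.2 to 39.2 in P-deficient soil.

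Class 7 was divided, with 4 of 7 genes lower and 3 not passing, and a class median of -0.43. KIN7A (LOC4323990), the rice counterpart of the tobacco motor NACK1 that switches on a kinase cascade at the phragmoplast, read 59.8 and 68.2 in NT and 70.7 and 75.7 in T in P-fertilised soil. It read 34.6 and 16.5 in NT and 33.1 and 16 in T in P-deficient soil, and it fell by 0.83 ± 0.15 (limma adjusted p = 0.001692). Replicates of KIN7A in P-deficient soil differed more than the genotypes did. KIN7K (LOC4349100) read 313.1 and 349.9 in NT and 346 and 379.1 in T in P-fertilised soil, then 73.4 and 35.8 in NT and 88.2 and 52.7 in T in P-deficient soil. It fell by 2.03 ± 0.18 (limma adjusted p = 3.295e-05), the most of its class. KIN7D (LOC4330897) read 286.1 and 306.4 in NT and 351.3 and 345 in T in P-fertilised soil, against 90.8 and 52 in NT and 74 and 80.4 in T in P-deficient soil. It fell by 1.75 ± 0.14 (limma adjusted p = 2.139e-05), with both T arrays of P-fertilised soil above both NT arrays. KIN7L (LOC4350714) read low throughout, 36.2 to 55.6 in P-fertilised and 20.2 to 31.7 in P-deficient soil, and fell by 0.43 ± 0.12 (limma adjusted p = 0.01838). That call was lost when T replicate 2 of P-deficient soil, or replicate 2 of T or of NT in P-fertilised soil, was left out.

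The remaining 3 genes of class 7 kept closer levels between soils. KIN7F (LOC4336528) had the highest mean signal of the class and read 266.4 and 265.7 in NT and 317.1 and 331.9 in T in P-fertilised soil. In P-deficient soil it read 366.7 and 316.3 in NT and 333.4 and 328.7 in T. The NT arrays of the 2 soils did not overlap while the T arrays did, and the difference over both genotypes of 0.17 did not pass, with a 95% interval of -0.07 to 0.42 (limma adjusted p = 0.2103). KIN7C (LOC4330142) read 224.1 and 241.1 in NT and 249.2 and 258.1 in T in P-fertilised soil, and 207.5 and 300 in NT and 191.2 and 179.1 in T in P-deficient soil. Its interval was -0.45 to 0.15, and in P-deficient soil the NT replicates lay far apart, both above the T replicates. KIN7J (LOC4347645) read 20.4 to 41 in P-fertilised and 28.3 to 47.3 in P-deficient soil, with an interval of -0.27 to 0.37. These intervals leave room for modest differences either way. Those of KIN7F and KIN7C leave none for a fall of the size seen in KIN7D or KIN7K. For KIN7J, with a mean of 32.6 in P-fertilised soil, the added 32 keeps any fall smaller than that, so its interval cannot decide.

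KIN4A (LOC4346402), the single gene of class 4, is known in rice as GDD1, a motor needed for ordered cellulose in the cell wall that also binds the promoter of a gibberellin synthesis gene. It read 450.8 and 457.2 in NT and 495.3 and 567.9 in T in P-fertilised soil. In P-deficient soil it read 155.9 and 100.3 in NT and 139.5 and 165.9 in T, and fell by 1.62 ± 0.14 (limma adjusted p = 3.514e-05). T was above NT on both arrays in P-fertilised soil, and the genotypes overlapped in P-deficient soil.

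KIN13A (LOC4337845) is the rice gene SRS3, whose loss gives small round seeds. It read 581.5 and 554.2 in NT and 639.8 and 656.7 in T in P-fertilised soil, and 243.6 and 199.5 in NT and 169.4 and 177 in T in P-deficient soil. It fell by 1.49 ± 0.11 (limma adjusted p = 1.35e-05). Its second probe set ran between 172.6 and 241.2 in P-deficient and between 324 and 434.4 in P-fertilised soil, and fell by 0.85 (limma adjusted p = 0.0004576), so both probe sets shared the direction but not the size. KIN13B (LOC4326684), the other microtubule depolymerase of class 13, read 358.1 to 434.3 in P-fertilised and 118.6 to 195.5 in P-deficient soil and fell by 1.14 ± 0.15 (limma adjusted p = 0.0003306). KIN8B (LOC4334272), of class 8, read 68 and 101 in NT and 72.6 and 98.7 in T in P-fertilised soil, and 29 and 17.9 in NT and 19.8 and 19.4 in T in P-deficient soil. It fell by 1.12 ± 0.14 (limma adjusted p = 0.0002453). The probe sets used for KIN8B, KIN13B and KIN14K are of the x_at type, which may take up RNA of related genes, and a second probe set of KIN8B read only 0.4 to 3.6 on any array.

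In the minus-end class 14, 12 of 14 genes fell, with a class median of -1.30. Among the 12, KIN14E was kept for testing only through its signal in P-fertilised soil. KIN14H (LOC4337093) had the largest difference of all kinesins on the log2(signal + 32) scale, although the ratio of mean signals, 7.23, was below that of KIN14F (10.5) and KIN12C (9.07). It read 476.3 and 659.5 in NT and 581.2 and 763.8 in T in P-fertilised soil, and 88 and 88.2 in NT and 104.3 and 62.4 in T in P-deficient soil, and fell by 2.46 ± 0.17 (limma adjusted p = 9.295e-06). In P-fertilised soil replicate 2 was the higher in both genotypes, yet the lowest of these arrays was several times the highest of P-deficient soil. KIN14F (LOC4332578) read 246.2 and 223.8 in NT and 258.1 and 265.7 in T in P-fertilised soil. In P-deficient soil it read 32.2 and 3.7 in NT and 26.9 and 31.6 in T, and it fell by 2.37 ± 0.18 (limma adjusted p = 1.569e-05). NT replicate 2 of P-deficient soil stood far below the other arrays of that soil.

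A further 6 genes of the class had falls between those of KIN14O and KIN14C. KIN14C (LOC4326167) read 99.2 and 122.2 in NT and 121.3 and 151.8 in T in P-fertilised soil, against 24.1 and 11.4 in NT and 29.6 and 18.4 in T, and fell by 1.56 ± 0.14. KIN14N (LOC4342193) read 168.2 and 179.1 in NT and 177.9 and 179.7 in T, against 46.4 and 45.9 in NT and 44.6 and 28.1 in T, and fell by 1.52 ± 0.12. KIN14N thus had nearly level replicates in P-fertilised soil, and 1 low T array in P-deficient soil. KIN14B (LOC9267695) read 68.7 and 85.2 in NT and 97.9 and 92.1 in T, against 11.3 and 1.9 in NT and 17.3 and 12.9 in T, and fell by 1.47 ± 0.12. KIN14E (LOC4331382) read 39.7 and 66.4 in NT and 68.5 and 79.4 in T, against 1.2 and 5.6 in NT and 3.4 and 1 in T, and fell by 1.44 ± 0.12. Both KIN14B and KIN14E thus read below 18.3, the highest array median, on every array of P-deficient soil. Their T arrays in P-fertilised soil were all above their NT arrays. KIN14A (LOC4327702) read 83.4 and 112.2 in NT and 125.5 and 122.2 in T, against 30.8 and 20.1 in NT and 28.9 and 19.5 in T, and fell by 1.32 ± 0.13. KIN14O (LOC9267314) read 132.8 and 107.4 in NT and 135.4 and 112.9 in T, against 16.9 and 43.1 in NT and 33.6 and 34.1 in T, and fell by 1.28 ± 0.15. The limma adjusted p of these 6 genes was 0.0002117 (KIN14O) or less.

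The remaining 4 falls in class 14 were smaller. KIN14M (LOC4341280) fell by 1.17 ± 0.20 (limma adjusted p = 0.001749), with T replicate 1 of P-fertilised soil far above the rest at 319.8. KIN14Q (LOC4352456) encodes the motor OsKCH1, which binds actin filaments as well as microtubules. It read 24 and 26.2 in NT and 40.7 and 42.2 in T in P-fertilised soil, then 13.5 and 5.3 in NT and 14.3 and 9.8 in T in P-deficient soil, and fell by 0.61 ± 0.10 (limma adjusted p = 0.00116). KIN14L (LOC4340497) read 109.3 and 101.5 in NT and 102.6 and 124.8 in T, then 71.6 and 40.4 in NT and 96.7 and 58.1 in T, and fell by 0.55 ± 0.17 (limma adjusted p = 0.02469). KIN14R (LOC4352796) read 33.6 to 37.5 in P-fertilised and 10.6 to 25.8 in P-deficient soil, and fell by 0.50 ± 0.12 (limma adjusted p = 0.009576). KIN14L was the least certain of the calls, since T replicate 1 of P-deficient soil came close to the arrays of P-fertilised soil. Quantile normalization ended its call, as did leaving out replicate 2 of either genotype in P-deficient soil, T replicate 2 in P-fertilised soil or any NT array of P-fertilised soil.

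The other 2 genes of class 14 did not pass. KIN14I (LOC4337322) encodes the calmodulin-binding motor KCBP, which in Arabidopsis shapes the hairs of the leaf. It read 78.6 and 74.1 in NT and 91.1 and 103 in T in P-fertilised soil, and 81.6 and 41.2 in NT and 115.3 and 71.9 in T in P-deficient soil. Its difference of -0.15 had an interval of -0.55 to 0.24, and its replicates in P-deficient soil lay far apart in both genotypes. KIN14K (LOC4339353) read 40 to 46 in P-fertilised and 42.2 to 51 in P-deficient soil, with an interval of -0.15 to 0.28, and its arrays lay close together in both soils. Of its other probe sets, the tested one differed between soils by -0.08 (limma adjusted p = 0.5741).

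The lower level was seen in each genotype by itself. In NT, 24 kinesins fell, 0 rose and 8 did not pass, and 25 fell when the arrays with the high actin ratio were also left out of the fit. In NT, 23% of all genes tested fell and 42% passed in either direction. In T, 25 fell, 0 rose and 7 did not pass, while 24.2% of all genes fell and 45.5% passed. The median was -1.16 in NT and -1.23 in T, and 24 genes fell in both. KIN14R passed in T and not in NT, and KIN7L and KIN14L passed over both genotypes but in neither alone. The NT and T estimates share no array, and across the 32 genes, which are not independent replicates, they correlated at 0.958 (Pearson) and 0.938 (Spearman). The same correlation over all 17905 genes was 0.954, so the kinesins followed the general likeness of the genotypes. KIN7C was the 1 gene whose estimates had opposite signs, 0.09 in NT and -0.40 in T, and neither passed.

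**Figure D3:**
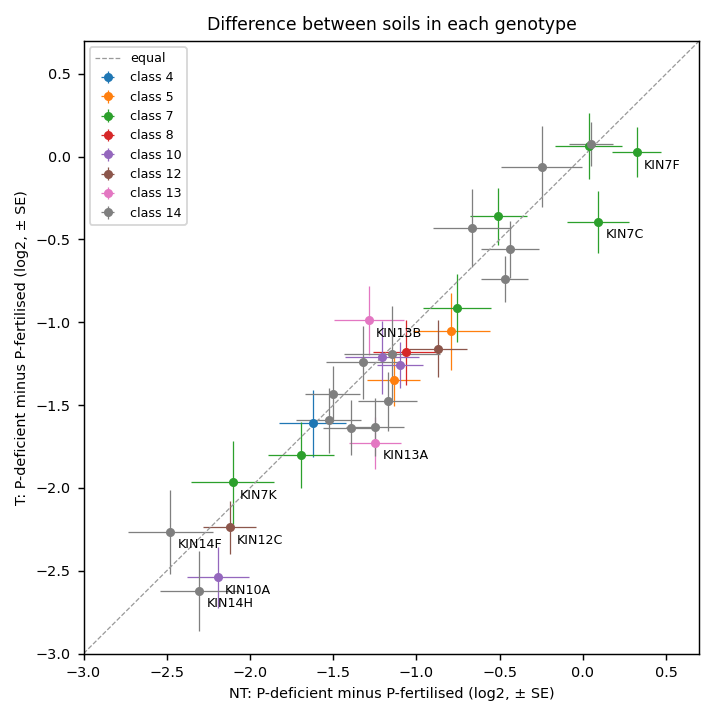
Log2 difference of P-deficient minus P-fertilised soil in NT (horizontal) and in T (vertical) for 32 kinesin genes, with standard errors, coloured by class. The dashed line marks equal differences. KIN14H, KIN14F, KIN10A, KIN12C and KIN7K lie farthest from 0 in both genotypes, and KIN7C has opposite signs (0.09 and -0.40).

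No kinesin passed between T and NT. The count was 0 of 32 within either soil, over both soils and for the difference of the genotype effect between soils (limma). All genes gave few calls too, namely 0.0247% in P-deficient soil, 0.00619% in P-fertilised soil, 0.0124% over both soils and 0% for the difference between soils. At an unadjusted p under 0.05 the counts were 0, 1, 1 and 0. The 1 gene was KIN14Q, higher in T by 0.36 ± 0.14 in P-fertilised soil (limma adjusted p = 1) and by 0.23 ± 0.10 over both soils (limma adjusted p = 0.518). In P-fertilised soil its T arrays, at 40.7 and 42.2, were both above its NT arrays, at 24 and 26.2. A standard error of 0.13 to 0.29 for a kinesin within 1 soil leaves room for differences of the size that KIN14Q showed.

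In P-fertilised soil the T means leaned upward, although no single gene passed. T had the higher mean in 30 of 32 kinesins, or 93.8%, against 59.3% of all genes tested, with a median difference of 0.13 against 0.04. KIN5A (-0.01) and KIN13B (-0.07) were the exceptions. Both T arrays lay above both NT arrays in 15 kinesins, or 46.9%, against 24.4% of all genes tested, and below them in 0, against 14.1%. Besides KIN14Q, the smallest p values belonged to KIN10A, higher by 0.38 ± 0.18 (limma adjusted p = 1), and KIN14E, higher by 0.33 ± 0.17 (limma adjusted p = 1). The number of genes with a higher T mean dropped to 25 when T replicate 2 of this soil was left out, and to 26 when NT replicate 1 was. The kinesin genes share these 4 arrays, so their directions are not independent of each other. T replicate 2 also carried signal of green tissue genes, with a summed signal over 4 such genes of 908.7. The sum was 258.5 on T replicate 1 and 131 to 164.7 in NT. CAB2R (397.3), PETE (367.7) and LFNR1 (34.9) were highest on T replicate 2, while rbcS (108.8) lay within its NT range of 84.6 to 114.7. The summed signal of 6 dividing-cell markers overlapped, with 1867 to 2202 in T and 1835 to 2247 in NT. All 3 secondary wall genes had higher T means in this soil, with a median difference of 0.42 and 0 past the threshold. Both T arrays of CESA9 (221.4 and 201.9) were above both NT arrays (117.4 and 174), while the T and NT arrays of CESA4 and of CESA7 overlapped. The part of these marker genes in the kinesin values was not tested.

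In P-deficient soil, where both T arrays had the high actin ratio, there was no such lean. T had the higher mean in 17 of 32 kinesins, against 59.3% of all genes, with a median of 0.02 against 0.06. Both T arrays lay above both NT arrays in 4 genes, or 12.5% (24.1% of all genes), and below them in 4, or 12.5% (13% of all genes). The smallest p values were those of KIN7C, with a difference of -0.38 ± 0.19 (limma adjusted p = 0.4301), and KIN13A, with -0.30 ± 0.16 (limma adjusted p = 0.4481). On the other side stood KIN14I, with 0.44 ± 0.24 (limma adjusted p = 0.476), KIN14B, with 0.30 ± 0.17 (limma adjusted p = 0.4801), and KIN14F, with 0.35 ± 0.25 (limma adjusted p = 0.5779). For KIN13A the second probe set went the other way, with 241.2 and 184.4 in T against 182.2 and 172.6 in NT. KIN14K was among the 4 genes with T above NT. Its other tested probe set went the other way, with 16.3 and 18.3 in T against 38.4 and 30.8 in NT. The difference of KIN14F rested on NT replicate 2, without which it was -0.07. For the difference of the genotype effect between soils 0 passed (limma). The smallest p values belonged to KIN13A, KIN7C and KIN14E (-0.38, limma adjusted p = 0.8736) among the negative differences, and to KIN13B (0.30), KIN14L (0.23) and KIN7L (0.15) among the positive ones.

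**Figure D4:**
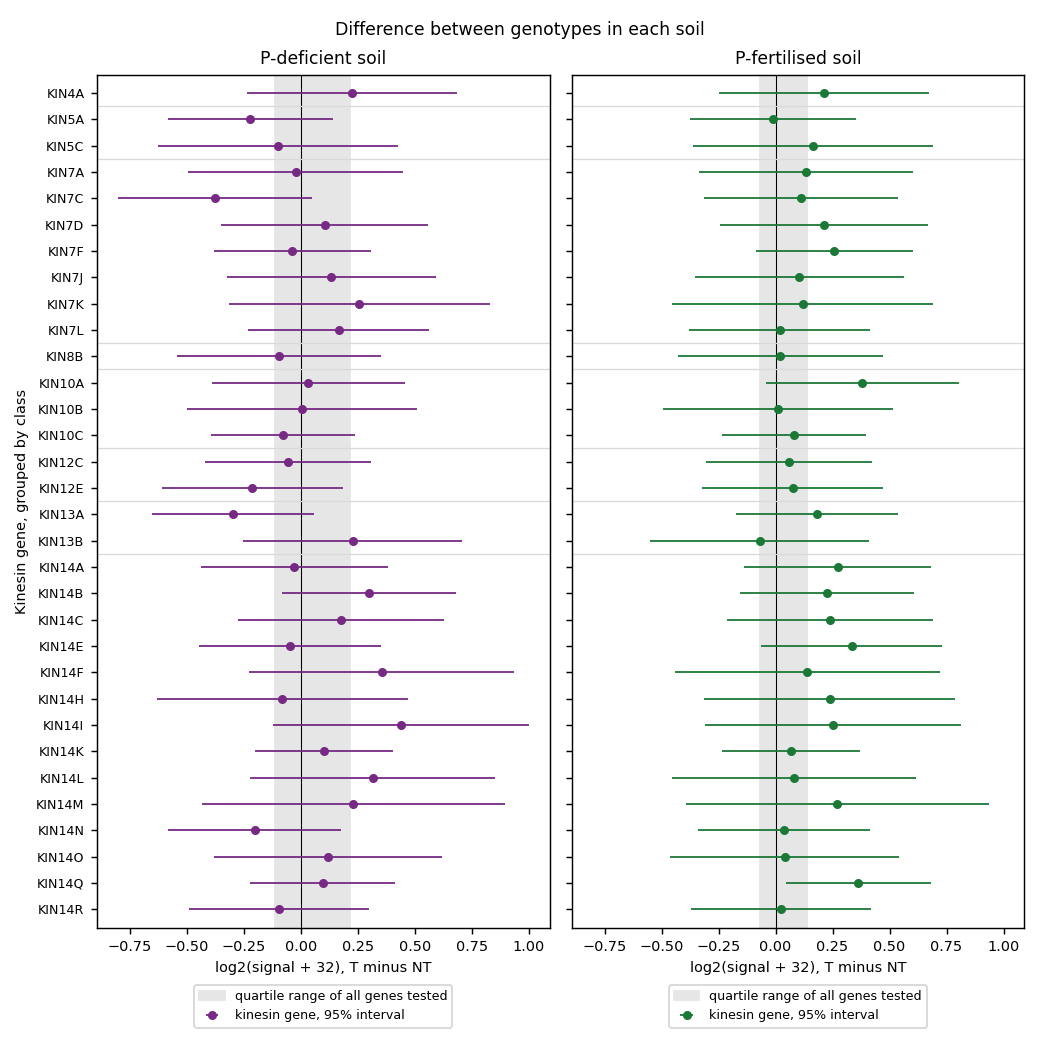
Log2 difference of T minus NT for each kinesin gene in P-deficient soil (left) and P-fertilised soil (right), with 95% intervals. The grey band spans the quartiles of the 16166 genes tested. In P-fertilised soil 30 of 32 points lie above 0, against 17 of 32 in P-deficient soil, and 0 genes passed in either.

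Other genes of the microtubule and of division were set beside the kinesins for the soil comparison over both genotypes. In that comparison 30.4% of all genes tested fell, 27.4% rose and 57.8% passed in either direction. Of 10 tubulin genes, which code for the track that kinesins walk on, 8 fell, 0 rose and 2 did not pass, with a median of -1.30. TUB6 fell by 4.04 ± 0.24 and TUB8 fell by 3.76 ± 0.45, the most of the list, while TUB7 had a difference of -0.01 and an interval of -0.34 to 0.33. MOR1, a protein that promotes microtubule growth, fell by 0.72 ± 0.10 (limma adjusted p = 0.0006296). Of 4 actin genes, whose filaments carry myosins instead, ACT3 rose by 0.44, ACT1 fell by 0.44 and the other 2 did not pass.

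Of 8 genes for mitotic cyclins and their kinases, which drive entry into mitosis, 7 fell, with a median of -2.10, and CYCA1-4 (0.18) did not pass. CYCB2-2 fell by 3.34 ± 0.15 and CYCB1-1 (LOC4327547) fell by 3.04 ± 0.16. Both read below the highest array median on every array of P-deficient soil, with 0.9 to 8.8 and 9.4 to 16.9, so the added 32 limits the size of these differences. CYCB2-2 and CycB1-1 (LOC4326914), at most 8.8 and 8.4 there, were kept for testing only through their signal in P-fertilised soil. The filter thus favoured a fall in them. Of 20 DNA replication genes tested, 11 fell, 2 rose and 7 did not pass, while 57.8% of all genes tested passed in either direction. Among the 11, ORC1 and ORC3 were kept for testing only through their signal in P-fertilised soil. MCM3, a subunit of the replicative helicase, fell by 2.40 ± 0.13, and the 2 that rose were ORC4 (1.03) and RPA70a (0.44).

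**Figure D5:**
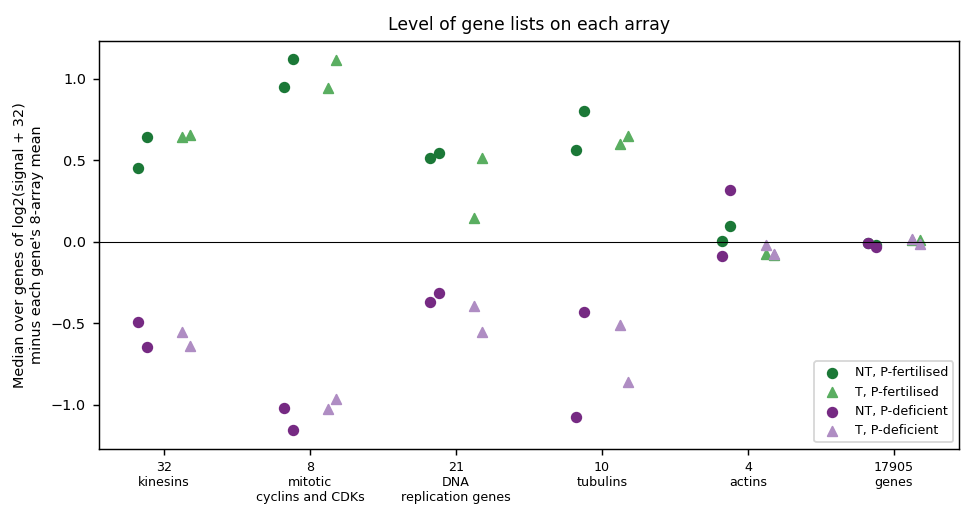
Median over the genes of each list of log2(signal + 32) minus the gene's own mean over 8 arrays, 1 point per array. Circles are NT and triangles T, purple for P-deficient and green for P-fertilised soil. Kinesins, mitotic cyclins and CDKs, DNA replication genes and tubulins are lower on all 4 arrays of P-deficient soil, while the actins overlap and all 17905 genes stay near 0.

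Markers of dividing cells, root and secondary wall fell, like most kinesins. Those of root apex and green tissue mostly did not pass. Among all genes tested 30.4% fell and 57.8% passed in either direction. All 6 markers of dividing cells fell, 5 of which are also in the cyclin list and 1 in the replication list, and their summed signal was 262 to 332 in P-deficient and 1835 to 2247 in P-fertilised soil. All 5 root markers fell too, among them Lsi2, which fell by 4.78, and CASP1, which fell by 3.54. Their summed signal was 2400 to 3273 against 8257 to 8714. All 3 secondary wall cellulose synthases, CESA4, CESA7 and CESA9, fell, with summed signals of 496 to 566 against 1699 to 2970. Of 3 root apex genes QHB fell by 0.79 while SHR1 and SCR1 did not pass, and of 4 green tissue genes 0 passed. No marker list was at 0 in either soil. The part of a change in cell makeup in the kinesin values was not tested.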

How the data were processed

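Each deposited array gives the authors' intensity, a linear value, for 57381 probe sets. The submitters' processing notes name GCOS, with version and settings not given in the sources used here. With 2 percent cut at either end, every array had a mean of 100.01 to 100.02, so a common scaling preceded deposit. The number of arrays limits the precision, and no detection calls were used.

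Log2(intensity + 32) entered limma 3.58.1 (R 4.3.3, eBayes with a trend) as 4 group means over 8 arrays, with 4 residual degrees of freedom. Left out were control probe sets and the 40 percent with the lowest mean (log2 under 5.39). P-values were adjusted by Benjamini-Hochberg over the 34316 probe sets kept, and all 32 kinesins were kept. The filter used the mean over 8 arrays. KIN10A and KIN14E, with mean signals of 1.675 and 2.8 in P-deficient soil, were kept only through their signal in P-fertilised soil. Each gene was read by its probe set with the highest mean. The script was also tested on simulated data. Names come from the platform annotation and a RefSeq table of assembly ASM3414082v1, used for names only. Sequences were not used here.

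Named with values are the 15 largest soil falls past the threshold, up to 3 genes each way with the smallest p in each other comparison, and the gene with the highest mean signal in each class. KIN7A, KIN10B, KIN10C, KIN12E, KIN14M and KIN14R were added after their values were seen. The members, lists and tests were chosen with earlier results of these data known. Alternatives were quantile normalization, pseudocounts of 1 and 100, no filter or a 60 percent filter, additive terms, the mean of all probe sets of a gene, a replicate block, GAPDH ratios as a covariate and each array left out. Numbered replicates did not deviate together (correlations of -0.261 to 0.21), so they were not treated as pairs.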

Additional observations from a re-analysis of the deposited data

Results flagged for a closer look

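In KIN7C both T arrays lay below both NT arrays in P-deficient soil (191.2 and 179.1 against 207.5 and 300) and above them in P-fertilised soil (249.2 and 258.1 against 224.1 and 241.1). The difference of the genotype effect between soils was -0.49 ± 0.26 (log2, SE), with a limma adjusted p of 0.8617. KIN13A had the same pattern, with 169.4 and 177 in T against 243.6 and 199.5 in NT in P-deficient soil and 639.8 and 656.7 against 581.5 and 554.2 in P-fertilised soil. Its difference was -0.48 ± 0.22 (limma adjusted p = 0.8286). Neither passed, and in the second probe set of KIN13A both T arrays were above both NT arrays in each soil. The T arrays of P-deficient soil are those with the high actin ratio.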

How the results depend on the processing

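Under every alternative run, the count of kinesins past the threshold stayed at 0 for T against NT in each soil, over both soils and for the difference between soils. The count that fell in P-deficient soil was 24 to 27 over both genotypes, 20 to 25 in NT and 21 to 26 in T, with 0 higher. The median over both genotypes ran from -1.92 with a pseudocount of 1 to -0.69 with 100. The 60 percent filter left out KIN14E, KIN14Q and KIN14R, and the second GAPDH pair as a covariate, chosen after seeing the data, ended the calls of KIN7L, KIN14L and KIN14R. Without the T arrays of P-deficient soil, also chosen after seeing the data, 25 genes fell in NT. With the replicate block 27 genes fell over both genotypes, 23 in NT and 24 in T, and 0 passed for T against NT. That block takes the same replicate shift in every group. Crossing the replicate numbers in P-deficient soil, added because they correlated at -0.261, gave 0 of 32 kinesins and 81 probe sets in all against 37. A T mean above that of NT was seen in 25 to 30 kinesins in P-fertilised and 12 to 23 in P-deficient soil.

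Of 960 single-gene values under alternatives, 17 turned sign, in 10 results that did not pass. With another setting than leaving out an array, KIN14K in T between soils became -0.037 (mean of all probe sets) and KIN7J in T -0.16 and -0.11 (the 2 GAPDH covariates). T minus NT of KIN5A in P-fertilised soil became 0.026 (second GAPDH pair), and the difference between soils of KIN14L became -0.11 (GAPDH ratio). With 1 array left out at a time, the soil difference ran from -0.14 to 0.33 for KIN7C in NT, from -0.13 to 0.26 for KIN7J in T and from -0.0034 to 0.057 for KIN7F in T. T minus NT ran from -0.069 to 0.78 for KIN14F in P-deficient soil, from -0.18 to 0.037 for KIN13B and from -0.088 to 0.066 for KIN5A in P-fertilised soil, and from -0.17 to 0.0036 for KIN14N over both soils. The difference of the genotype effect between soils ran from -0.025 to 0.49 for KIN14L and from -0.033 to 0.33 for KIN7L. The cause was not tested.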
